A study of Homo sapiens with 4 samples.

Results

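Replication-dependent histone genes encode the linker histone H1 and the core histones H2A, H2B, H3 and H4 that package newly copied DNA. They were followed here in MCF10A cells, a human breast epithelial line that grows without limit and is not tumorigenic. Members were the protein-coding genes of GENCODE release 29 whose symbols have the older form HIST1H to HIST4H. The rule gave 71 genes of the 34500 with a transcript in the tables. It uses no measured value, but it was chosen with earlier results of these data known. Of the 71, 64 passed a filter on low counts and stood among the 14774 genes tested. They comprised 6 H1, 17 H2A, 18 H2B, 15 H3 and 15 H4 genes, of which 5, 16, 17, 14 and 12 were tested. By the current naming pattern alone, H1FX and H2BFS would also have matched. They were placed in the list of replication-independent variants, which is a choice of list and was not tested for either gene.

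Per the labels, the cells of all 4 libraries stably expressed a scramble shRNA, that is, a short hairpin RNA designed against no gene. The treated libraries, TGF-β1 replicates 1 and 2, came from cells that received TGF-β1 in the medium at 5 ng/ml for 1.5 h, and control replicates 1 and 2 came from cells at 0 h. The labels call the libraries biological duplicates and do not say whether the transduced cells were a pool or a clone. Nothing in them ties equal replicate numbers to a common day or batch either. The comparison over 1.5 h asks what the cytokine, which signals through receptor kinases to SMAD proteins, did to these mRNAs. The comparison of replicate 2 with replicate 1 asks how far they varied between libraries with the same label. The level of PHF8, given before the results, differs between the numbers, and replicate variation and an unlabelled difference between the cultures cannot be told apart here.

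Histone mRNAs of this kind are made mainly in S phase, when DNA is copied, and most end in a conserved stem-loop where other mRNAs have a poly(A) tail. SLBP, the stem-loop binding protein, binds that hairpin, and the U7 snRNP cuts the transcript just downstream of it. NPAT, a substrate of cyclin E and CDK2, activates the genes from bodies attached to the histone gene clusters. When replication stops, the mRNAs are degraded quickly. How RNA was selected therefore matters for these genes, and the labels describe it in more than one way. The kit named is for total RNA depleted of ribosomal RNA, while the molecule field says polyA RNA. The effect of the selection on histone mRNA levels was not tested.

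Printed first is the hairpin, because it defines the family. The GENCODE 29 models were searched on the transcribed strand for 16 letters made of GG, any 3 letters, TT, any 3 letters, an A, any 3 letters and CC, with the first 6 able to pair with the last 6. The hairpin was found in 31 of the 71 genes. Of the 40 without it, 33 have only models that begin with ATG and end with a stop codon, so that the part after the coding sequence is not in the model. The same letters stood within 100 bases of the 3′ end in 6 of 19552 other protein-coding genes (0.0307%), and anywhere in 113 (0.578%). Each hairpin is given 5′ to 3′ with the paired stem in capitals, the loop in lower case between the arms, and 5 flanking bases on each side. Coordinates are GRCh38.
HIST2H4A, chr1:149833027-149833052, plus strand: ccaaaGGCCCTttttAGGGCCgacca
HIST1H4J, chr6:27824454-27824479, plus strand: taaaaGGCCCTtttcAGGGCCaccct
HIST1H3H, chr6:27810511-27810536, plus strand: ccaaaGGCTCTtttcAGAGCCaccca
HIST1H2BC, chr6:26123467-26123492, minus strand: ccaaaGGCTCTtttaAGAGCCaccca
HIST1H2BG, chr6:26216213-26216238, minus strand: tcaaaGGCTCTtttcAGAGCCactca
HIST3H2A, chr1:228457364-228457389, minus strand: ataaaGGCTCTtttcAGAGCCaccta
HIST1H3E, chr6:26225591-26225616, plus strand: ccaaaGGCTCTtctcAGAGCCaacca

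The stem separated H4 from the other core histones. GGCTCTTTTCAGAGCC stood in 17 genes, all of the H2A, H2B and H3 classes, and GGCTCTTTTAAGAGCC in 5 genes of the H2B and H3 classes. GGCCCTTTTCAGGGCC stood in 5 genes and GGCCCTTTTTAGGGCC in 3, all of class H4. HIST1H3E alone had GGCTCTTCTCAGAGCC. These are matches of letters, and binding of SLBP was not measured.

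Promoters are printed next, and a link between their motifs and differences between libraries was not tested. RefSeq start sites on GRCh38.p14 matched 65 of the 71 genes. In the 250 bases before the start, on either strand, TATAAA stood in 44 of 65 members (67.7%), against 11% of 27240 other promoters. CCAAT stood in 55 members (84.6%), against 32.9% of the others. It was in every matched H1, H2A, H2B and H3 promoter and in 3 of 13 H4 promoters. The octamer ATTTGCAT, the letters that the POU factor OCT1 reads in H2B promoters, stood in 14 of 18 H2B and 11 of 16 H2A promoters, in 0 of the 31 other member promoters, and in 1.57% of the others. Head-to-head H2A and H2B genes can share these bases, so a single site of any of the 3 motifs can count for both genes. HIST1H2AA and HIST1H2BA, for example, share the same octamer. The counts are therefore of promoters and not of separate sites. The 3 motifs share no letters where they were printed. Shown are the 120 bases before the start, with any match to the 3 motifs, on either strand, in capitals.
HIST1H2BG, chr6:26216689-26216808, minus strand: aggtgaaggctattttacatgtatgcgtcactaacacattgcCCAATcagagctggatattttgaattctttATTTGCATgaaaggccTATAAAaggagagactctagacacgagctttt
HIST1H2BM, chr6:27814902-27815021, plus strand: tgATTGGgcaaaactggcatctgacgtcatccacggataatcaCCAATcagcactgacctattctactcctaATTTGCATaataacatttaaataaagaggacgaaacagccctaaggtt
HIST3H2A, chr1:228457874-228457993, minus strand: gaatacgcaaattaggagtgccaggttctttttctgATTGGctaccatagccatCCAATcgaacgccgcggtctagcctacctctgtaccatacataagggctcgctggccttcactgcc
HIST2H4A, chr1:149832537-149832656, plus strand: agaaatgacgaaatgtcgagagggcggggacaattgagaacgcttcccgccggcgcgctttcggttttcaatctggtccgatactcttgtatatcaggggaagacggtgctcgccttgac

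HIST1H2BG carried all 3 motifs and HIST2H4A, the member with the highest counts, none in this stretch. HIST1H2BM had the largest difference between replicate numbers, and HIST3H2A was the only member called higher in the libraries numbered 2.

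The genes lie close together. On chromosome 6, 55 members run from 25726132 to 27893843, with 34 ending by 26285638 (the telomeric group) and 21 starting from 27125897 (the centromeric group). Chromosome 1 holds 15 members, and HIST4H4 is on chromosome 12. Coding sequences within a class are much alike, which limits how well short reads separate the genes. All 15 H3 genes have a coding length of 411 bases, with pairwise identities from 81.0% to 100%. H4 pairs of equal length ran from 79.2% to 100%, and H2B pairs from 84.8% to 94.2%. HIST2H3A and HIST2H3C have 1 model each of identical sequence, and HIST2H2AA3 and HIST2H2AA4, HIST2H4A and HIST2H4B, and HIST1H4J and HIST1H4K have identical coding sequences. The deposited estimates, in which 1 read can be split over several similar transcripts, were whole numbers (within 0.01) in every library for 19 members and fractional for 52. Single genes of the second kind are uncertain, and class sums are less exposed to that division.

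The estimated counts came to 40461473 and 35737659 in TGF-β1 replicates 1 and 2, and to 40792300 and 36693330 in control replicates 1 and 2. In both groups the library numbered 2 stood apart from the library numbered 1. PHF8, a histone demethylase whose overexpression the labels' protocol says was checked, had 20.0 CPM (counts scaled to library size) in TGF-β1 replicate 1 and 4.0 CPM in TGF-β1 replicate 2, against 20.2 CPM in control replicate 1 and 3.88 CPM in control replicate 2. The log2 fold change of replicate 2 over replicate 1 was −2.35. The labels give all 4 libraries the same scramble shRNA and state no treatment of PHF8 that differs between the numbers. The labels may be incomplete or wrong on this point, which the files do not settle, and each comparison of replicate numbers is one of libraries that also differ in PHF8. All 14 basal mammary markers were detected, with a summed level of 20509 to 26455 CPM in TGF-β1 libraries and 18121 to 25872 CPM in control libraries. With TGF-β1, 13 of the 14 had positive log2 fold changes (median 0.09), where 52.3% of all genes tested had negative ones. None of the 14 was called. Between replicate numbers, 7 were called lower and 1 higher in the libraries numbered 2 (median −0.24, lowest −1.33), against 21.0% and 16.4% of all genes. Of 10 luminal markers 6 passed the filter (sums of 605 to 732 CPM in TGF-β1 and 569 to 766 CPM in control libraries), PGR and KIT being at or near 0. Of 9 fibroblast markers 4 passed (69.4 to 94.3 CPM in TGF-β1 and 79.8 to 80.3 CPM in control libraries), with COL3A1 and LUM at or near 0. Of 10 blood and endothelial markers 4 passed (39.7 to 56.8 CPM in TGF-β1 and 45.5 to 56.2 CPM in control libraries), and CD3E was listed at 0.

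Histone members took 0.750% of the gene counts in TGF-β1 replicate 1 and 0.520% in TGF-β1 replicate 2, against 0.841% in control replicate 1 and 0.549% in control replicate 2. Their 95% Wilson intervals ran from 0.747% to 0.752% and from 0.517% to 0.522% in the TGF-β1 libraries, and from 0.838% to 0.844% and from 0.547% to 0.552% in the control libraries. Such intervals cover counting error only. The groups overlapped, and the libraries numbered 2 held the lower share in each.

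Per length, H4 mRNAs were the most abundant class and H1 the least. H4 genes summed to 8544 and 6116 TPM in TGF-β1 replicates 1 and 2, against 9831 and 6023 TPM in control replicates 1 and 2. H2A genes summed to 7752 and 5144 TPM in the TGF-β1 libraries and to 8278 and 5279 TPM in the controls. H2B followed at a mean of 5469.7 TPM over the 4 libraries, then H3 at 3817 TPM and H1 at 2962 TPM. This order held within each library, although the ranges of neighbouring classes overlapped over the 4. TPM also depends on the models, many of which hold the coding part alone.

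**Figure D1:**
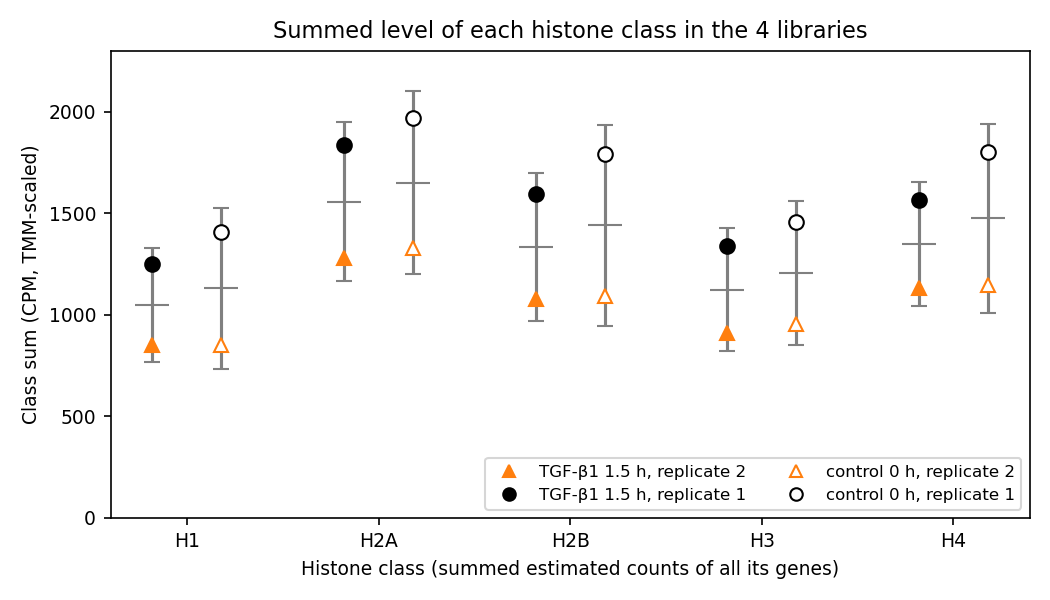
Summed CPM (vertical axis) of the genes of each histone class (horizontal axis) in each library, TGF-β1 1.5 h left (filled) and control 0 h right (open), with circles for replicate 1 and triangles for replicate 2; grey bars are the mean ± SD of 2 libraries. In every class both triangles lie below both circles, as in H1 with 851 and 850.3 CPM below 1249 and 1409 CPM, while the TGF-β1 and control libraries overlap.

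Among single genes, HIST1H4J had the highest mean TPM (1973), followed by HIST2H4A (1525) and HIST1H4E (1142). HIST1H1C and HIST1H1E, both linker histones, came next at 936 and 909.7 TPM, then HIST2H2AA3 at 904 TPM and HIST1H3B at 818 TPM. At the low end, HIST2H4B averaged 6.0 TPM and HIST1H4I 3.29 TPM. HIST1H4K, HIST1H4F, HIST1H4G, HIST1H2AA and HIST1H2BA were listed at 0 in every library. The reads of HIST1H4K cannot be told from those of HIST1H4J in the coding part. HIST1H1T and HIST3H3 had at most 1 read per library and were not tested. Multi-exon models of 10 member genes held 4.09% and 4.51% of member counts in TGF-β1 replicates 1 and 2, and 4.12% and 4.51% in control replicates 1 and 2.

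TGF-β1 for 1.5 h was followed by no called change in the histone genes in edgeR's test, while DESeq2 called 1. By edgeR's quasi-likelihood test with Benjamini-Hochberg adjustment, 0 of 64 members were called, as were 0 of all 14774 genes (0.0%). At an unadjusted p under 0.05 stood 1 member, HIST2H4B, against 255 genes in all (1.73%). DESeq2 called 1 member, again HIST2H4B, lower with TGF-β1 (adjusted p = 0.0433), where it called 0.458% of the 19649 genes with an adjusted p in either direction and 0.0356% lower.

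The summed levels show how close the groups were relative to their spread. H1 averaged 1050.0 ± 281 CPM in TGF-β1 libraries and 1129.9 ± 395 CPM in controls (SD, n = 2 each). H2A averaged 1558 ± 393 CPM in TGF-β1 libraries and 1649.8 ± 451 CPM in controls. H4 averaged 1349 ± 305 CPM with TGF-β1 and 1474 ± 466 CPM in controls. The edgeR log2 fold changes of the sums were −0.11 for H1 (SE 0.34), −0.08 for H2A (SE 0.30), −0.11 for H2B (SE 0.34), −0.10 for H3 (SE 0.32) and −0.13 for H4 (SE 0.31), each with an adjusted p of 1.00. In this fit the spread within each group is the difference between replicate numbers. Standard errors of this size leave changes of either direction possible.

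The sign was nonetheless mostly negative. Of 64 members, 59 had a negative log2 fold change, against 52.3% of all genes tested, and their median was −0.11 against −0.00 over all genes. Members share reads, position and regulation, so they are not independent counts. Within replicate number 1 the median log2 ratio of TGF-β1 to control was −0.16, and within number 2 it was −0.03. TGF-β1 was below control within both numbers for 40 members (62.5%), against 28.7% of all genes. Both TGF-β1 libraries lay below both controls for 1 member, against 8.36% of all genes. Where both libraries numbered 2 lie below both numbered 1, as in 60 of 64 members, the treatment groups must overlap. For those members this count cannot bear on TGF-β1. Without TGF-β1 replicate 2 or without control replicate 1, the class sums turned positive, from 0.09 to 0.31 on the log2 scale, and without either of the other libraries they were from −0.43 to −0.33. Each omission leaves the replicate numbers unbalanced between the groups.

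HIST2H4B, which encodes H4 and shares its coding sequence with HIST2H4A, had 2.39 and 2.90 CPM in TGF-β1 replicates 1 and 2, against 5.74 and 9.84 CPM in control replicates 1 and 2. Both TGF-β1 libraries were below both controls, with an edgeR log2 fold change of −1.55 (SE 0.36, unadjusted p = 0.0103, adjusted p = 1.00). The difference lay in 1 spliced model annotated for nonsense-mediated decay, HIST2H4B-202, with estimates of 4.62 and 0.0007 reads in the TGF-β1 libraries, against 89.2 and 261 reads in the controls. The single-exon coding model had 89.0 and 100.1 reads in the TGF-β1 libraries, against 136 and 99.9 reads in the controls. HIST2H4A-204, a spliced model of the copy gene, had 54.7 and 168 reads in the TGF-β1 libraries, against 50.7 and 23.1 reads in the controls. With coding models alone the log2 fold change of HIST2H4B was −0.25 (unadjusted p = 0.449). HIST2H4A, its neighbour, had 537 and 378 CPM with TGF-β1, against 607 and 377 CPM in the controls.

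The other members at the ends of the range moved little. HIST1H1A, a linker histone, had 32.9 and 15.5 CPM in TGF-β1 replicates 1 and 2, against 38.6 and 20.2 CPM in control replicates 1 and 2 (log2 fold change −0.28, SE 0.50). HIST1H3I had 27.2 and 15 CPM in TGF-β1 libraries, against 31.2 and 18.5 CPM in controls (−0.23, SE 0.40). At the upper end, HIST1H4I had 2.79 and 3.10 CPM in TGF-β1 libraries, against 2.29 and 3.06 CPM in controls (0.14, SE 0.30). HIST1H3E had 4.45 and 3.39 CPM in TGF-β1 libraries, against 4.26 and 3.33 CPM in controls (0.05, SE 0.29). In these 4 genes the libraries of the groups overlapped.

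**Figure D2:**
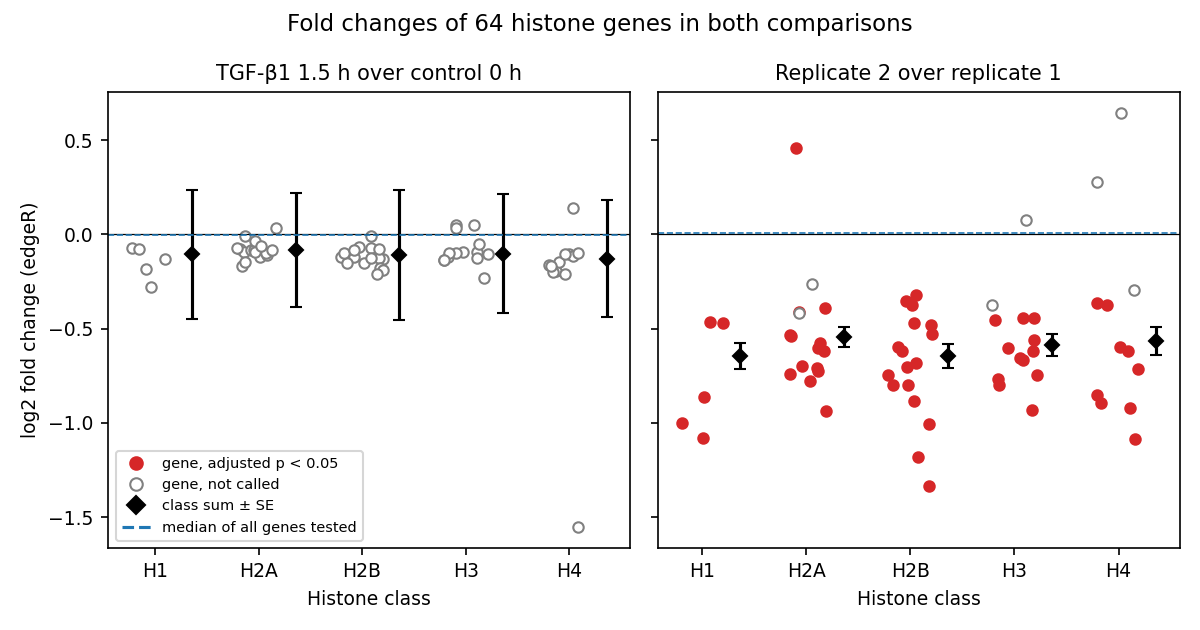
Log2 fold changes by edgeR (vertical axis) of the 64 tested histone genes by class (horizontal axis), TGF-β1 1.5 h over control 0 h on the left and replicate 2 over replicate 1 on the right; red points have an adjusted p under 0.05, diamonds are class sums ± SE and the dashed line is the median of all genes tested. On the left no gene is called and all but HIST2H4B (−1.55) lie between −0.28 and 0.14; on the right 56 genes are called lower and HIST3H2A (0.46) higher.

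The libraries numbered 2 held less histone mRNA than those numbered 1, in every class and in both groups. H1 genes summed to 851 CPM in TGF-β1 replicate 2 and 850.3 CPM in control replicate 2, against 1249 CPM in TGF-β1 replicate 1 and 1409 CPM in control replicate 1. H4 genes summed to 1134 and 1145 CPM in the TGF-β1 and control libraries numbered 2, against 1565 and 1804 CPM in those numbered 1. The libraries numbered 2 and those numbered 1 did not overlap in any of the 5 classes. By edgeR's test, with the classes in place of their genes in the table, the log2 fold change of replicate 2 over replicate 1 was −0.65 for H1 (SE 0.07, adjusted p = 0.00299) and −0.55 for H2A (SE 0.05, adjusted p = 0.00252). It was −0.64 for H2B (SE 0.07, adjusted p = 0.00288), −0.59 for H3 (SE 0.06, adjusted p = 0.00275) and −0.57 for H4 (SE 0.08, adjusted p = 0.00543). Of all rows in that fit, 37.3% were called. The spread within each number is there the difference between a TGF-β1 and a control library. It does not measure variation between independent cultures of the same number. The class sums were 1.46 to 1.56 times lower in the libraries numbered 2. In bulk RNA, fewer cells in S phase and less histone mRNA per cell cannot be told apart.

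Gene by gene, 57 of 64 members (89.1%) were called, against 37.4% of all genes tested. Of these, 56 were lower in the libraries numbered 2, where 21.0% of all genes were called lower, and 1 was higher, where 16.4% were. Both libraries numbered 2 lay below both numbered 1 for 60 of 64 members, against 36.6% of all genes, and above both for 3 members, against 35.9%. The median log2 fold change was −0.62, against 0.01 over all genes, and 1247 of the genes tested (8.44%) lay at or below that median. All 5 tested H1 genes, 13 of 16 H2A, 17 of 17 H2B, 12 of 14 H3 and 9 of 12 H4 genes were called lower.

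**Figure D3:**
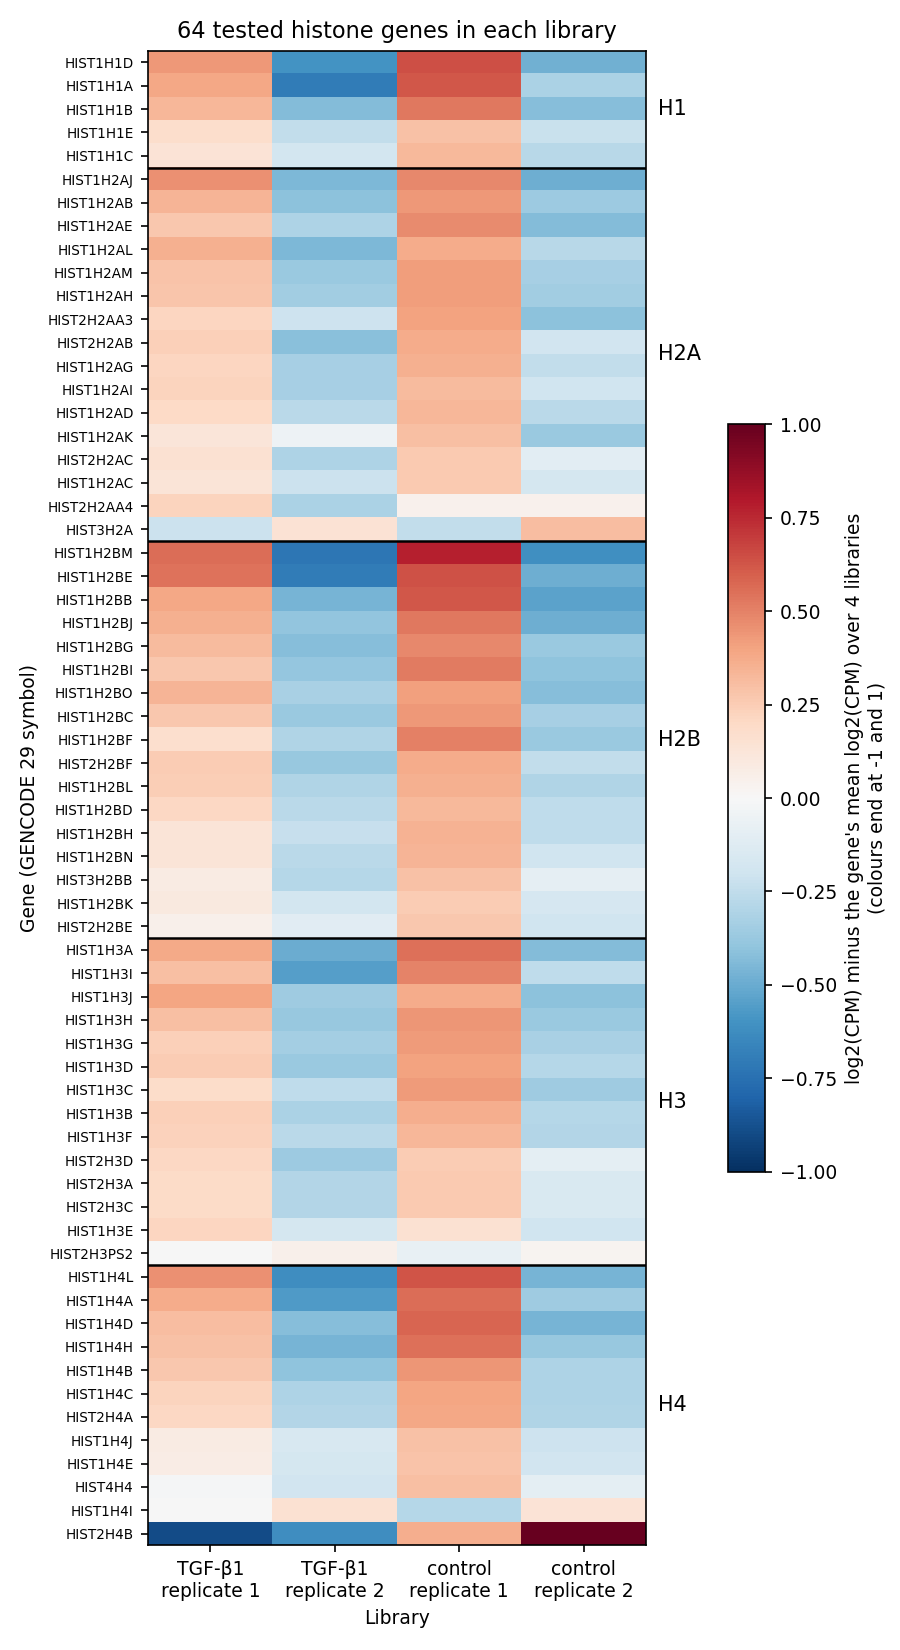
Heat map of log2(CPM) minus each gene's mean log2(CPM) over the 4 libraries (colour) for the 64 tested histone genes (rows, by class and then by the replicate 2 over replicate 1 fold change), with the TGF-β1 libraries left of the controls. Columns of replicate 1 are mostly red and those of replicate 2 mostly blue in both groups; HIST3H2A, HIST1H4I and HIST2H3PS2 run the other way, and HIST2H4B follows the treatment.

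Linker histones, which bind the DNA between nucleosomes, differed unequally. HIST1H1D had 73.6 and 79.9 CPM in TGF-β1 and control libraries numbered 2, against 150.3 and 174 CPM in those numbered 1 (log2 fold change −1.08, SE 0.09, adjusted p = 0.00178). HIST1H1A had 15.5 and 20.2 CPM in the libraries numbered 2, against 32.9 and 38.6 CPM in those numbered 1 (−1.0). HIST1H1B had 195 and 196 CPM in the libraries numbered 2, against 333 and 380.3 CPM in those numbered 1 (−0.87). The most abundant members of the class differed least. HIST1H1C had 288 and 270.0 CPM in the libraries numbered 2, against 359.7 and 411 CPM in those numbered 1 (−0.46). HIST1H1E had 279 and 284 CPM in those numbered 2, against 373 and 405 CPM in those numbered 1 (−0.47). Differences between these fold changes were not tested.

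H2A and H2B pair as dimers in the nucleosome, and their genes often stand head to head. HIST1H2BM had the largest difference of all members, with 13.4 and 14.5 CPM in TGF-β1 and control libraries numbered 2, against 32.4 and 37.8 CPM in those numbered 1 (log2 fold change −1.33, SE 0.10, adjusted p = 0.0015). HIST1H2BE had 10.3 and 11.9 CPM in the libraries numbered 2, against 24.4 and 26.0 CPM in those numbered 1 (−1.18). Next to HIST1H2BM, HIST1H2AJ had 56.4 and 55.1 CPM in the libraries numbered 2, against 106 and 108 CPM in those numbered 1 (−0.94). HIST1H2BJ (−0.89), HIST1H2BG (−0.80), HIST1H2AB (−0.78), HIST1H2BO (−0.74), HIST1H2BC (−0.70), HIST2H2BF (−0.62) and HIST1H2BD (−0.53) were also called lower. The smallest called differences of the H2B class, picked out after their values were seen, were those of HIST2H2BE (−0.32) and HIST1H2BK (−0.35). HIST1H2AC had 126 and 130.4 CPM in the libraries numbered 2, against 160.4 and 176 CPM in those numbered 1 (−0.39).

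HIST3H2A, from the small group on chromosome 1 that also holds HIST3H2BB and HIST3H3, went the other way. It had 37.1 and 41.6 CPM in TGF-β1 and control libraries numbered 2, against 28.9 and 28.3 CPM in those numbered 1 (log2 fold change 0.46, SE 0.07, adjusted p = 0.00836). Both libraries numbered 2 were above both numbered 1. HIST3H2BB of the same group was called lower (−0.37). HIST2H2AA3, with 217 and 189 CPM in the libraries numbered 2 against 291 and 332 CPM in those numbered 1, was called lower (−0.62). Its copy HIST2H2AA4 had 139 and 178 CPM in the libraries numbered 2, against 202 and 178 CPM in those numbered 1, and was not called (−0.26, adjusted p = 0.176). Since their coding sequences are identical, the division between these copies is the estimate's.

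H3 and H4 form the tetramer at the core of the nucleosome. HIST1H3A had 28.2 and 29.5 CPM in TGF-β1 and control libraries numbered 2, against 51.6 and 58.3 CPM in those numbered 1 (log2 fold change −0.93). HIST1H3I (−0.80), HIST1H3J (−0.77), HIST1H3H (−0.75) and HIST1H3B (−0.60) were called lower as well. HIST2H3A and HIST2H3C, whose models are the same sequence, each had 131 and 144.6 CPM in the libraries numbered 2, against 183 and 192 CPM in those numbered 1 (−0.45). In the H4 class, HIST1H4L had 19.3 and 21.5 CPM in the libraries numbered 2, against 40.7 and 45.9 CPM in those numbered 1 (−1.09, SE 0.09, adjusted p = 0.00182). HIST2H4A had 378 and 377 CPM in the libraries numbered 2, against 537 and 607 CPM in those numbered 1 (−0.60). HIST1H4J (−0.37) and HIST1H4E (−0.36) were called lower with smaller differences.

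Besides HIST2H2AA4, 6 tested members were not called, and those outside the naming rule are given because they complete the count. HIST1H4I had 3.10 and 3.06 CPM in TGF-β1 and control libraries numbered 2, against 2.79 and 2.29 CPM in those numbered 1 (log2 fold change 0.28, SE 0.18). HIST2H4B had 2.90 and 9.84 CPM in those numbered 2, against 2.39 and 5.74 CPM in those numbered 1 (0.65, SE 0.67). HIST2H3PS2 was level, at 7.73 and 7.57 CPM in those numbered 2 against 7.42 and 7.08 CPM in those numbered 1. HIST1H3E (−0.37), HIST1H2AK (−0.42) and HIST4H4 (−0.29) had negative log2 fold changes with adjusted p-values of 0.0954, 0.0760 and 0.0927.

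Grouped after their values were seen, members whose deposited model runs on by more than 100 bases after the hairpin had a median nearer to 0 than the rest. Their median log2 fold change of replicate 2 over replicate 1 was −0.45 over 15 genes, against −0.57 over 8 genes whose model ends near the hairpin. The median was −0.71 over 41 genes with no hairpin in the model or with a deposited length unlike that of GENCODE 29. For unlike lengths the absence of a hairpin was assumed. The values ranged from −0.75 to 0.65 in the 15 genes, from −0.85 to −0.26 in the 8 and from −1.33 to 0.08 in the 41. The 15 genes include HIST2 genes such as HIST2H4A, HIST2H3A and HIST2H2BE, so this grouping overlaps with the next, by position. By position, the medians were −0.68 over 29 telomeric and −0.72 over 20 centromeric HIST1 genes on chromosome 6, and −0.45 over 12 HIST2 genes on chromosome 1. The 12 tested members with whole estimates were all called lower (median −0.77). Of the 52 with fractional estimates, 44 were called lower and 1 higher (median −0.60). Over all genes 21.0% were called lower and 16.4% higher. No test was made between these groups.

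Other genes of DNA replication and the cell cycle stood lower in the libraries numbered 2 alongside the histone genes. Of 28 genes of DNA replication and S phase, 24 were called lower and 0 higher (median log2 fold change −0.62, range −1.52 to −0.14). Of 20 genes of G2 and mitosis, 20 were called lower (median −0.86). Among all genes tested, 21.0% were called lower and 16.4% higher. CDC6, which loads the replicative helicase, had 31.2 and 29.8 CPM in TGF-β1 and control libraries numbered 2, against 69.2 and 69.0 CPM in those numbered 1 (−1.18). MKI67, the proliferation marker, had 117 and 124 CPM in those numbered 2, against 264 and 279.8 CPM in those numbered 1 (−1.18). TK1, MCM7, TPX2, BUB1B and TOP2A were called lower too, at −0.96, −0.77, −1.22, −0.94 and −0.86. The summed CPM of the S phase list was 1840.1 and 1865 in TGF-β1 and control libraries numbered 2, against 2817 and 2791 in those numbered 1. The part of this difference, and those of PHF8 and the basal markers, in the histone result was not tested.

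**Figure D4:**
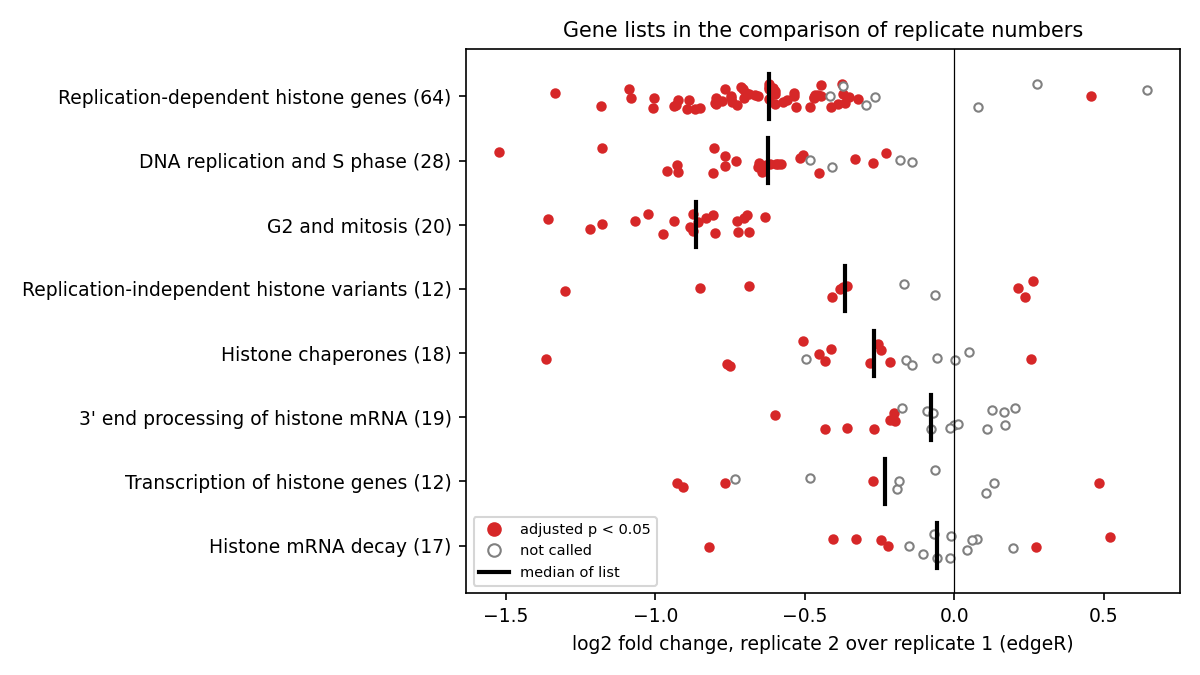
Log2 fold change of replicate 2 over replicate 1 by edgeR (horizontal axis) for the tested histone genes and for 7 lists of related genes (rows, number of tested genes in brackets); red points have an adjusted p under 0.05 and black bars are medians. The histone genes (median −0.62), the S phase list (−0.62) and the G2 and mitosis list (−0.86) lie furthest to the left, and the lists of histone mRNA processing and decay lie near 0.

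The lists of genes that make, process or destroy histone mRNA had medians nearer to 0. Their counts stand against 21.0% of all genes called lower and 16.4% called higher. Of 12 genes for the transcription of histone genes, 4 were called lower and 1, HINFP, higher (median −0.23). NPAT had 34.6 and 35.8 CPM in TGF-β1 and control libraries numbered 2, against 32.9 and 31.3 CPM in those numbered 1 (log2 fold change 0.13, adjusted p = 0.112). E2F1, CDK2 and CCNE1, which act upstream of NPAT or of S phase entry, were called lower at −0.93, −0.91 and −0.77. Of 19 genes for binding the stem-loop and forming the 3′ end, 7 were called lower and 0 higher (median −0.08). SLBP had 67.8 and 68.1 CPM in those numbered 2, against 79.8 and 76.2 CPM in those numbered 1 (−0.20, SE 0.05, adjusted p = 0.0252). That call was lost in 3 of the 4 fits without 1 library, namely TGF-β1 replicate 1, TGF-β1 replicate 2 or control replicate 2 (edgeR adjusted p 0.0810 to 0.110). SNRPB, a shared snRNP protein, was called lower at −0.60, and LSM11, specific to the U7 snRNP, had 32.2 and 34.4 CPM in those numbered 2 against 30.3 and 29 CPM in those numbered 1 and was not called. Of 17 genes of histone mRNA decay, 5 were called lower and 2 higher (median −0.06), with the decapping enzyme DCP2 at −0.82 and the uridylyltransferase TUT7 at 0.27. A total of 7 of 17 is near the 37.4% called over all genes. The call of TUT7 was lost without TGF-β1 replicate 2 or control replicate 2, and that of CCNE1 without control replicate 2 (edgeR adjusted p 0.0543 to 0.0675).

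Genes listed here as histone variants made outside S phase did not all follow the replication-dependent genes. Of 12 tested, 7 were called lower and 3 higher (median log2 fold change −0.37). The shares over all genes, here and for the chaperones that follow, were 21.0% lower and 16.4% higher. CENPA, the centromeric H3, had 11.7 and 13.0 CPM in TGF-β1 and control libraries numbered 2, against 26.5 and 34.7 CPM in those numbered 1 (−1.30). H2AZ1 (−0.41) was called lower, while H3-3A, H2AJ and MACROH2A2 were called higher, at 0.21, 0.26 and 0.24. DESeq2 called 1 of these 3, H3-3A, and the call of H2AJ was also lost in each of the 4 fits without 1 library (edgeR adjusted p 0.0522 to 0.156). Of 18 histone chaperones, 11 were called lower and 1, ASF1A, higher (median −0.27), where DESeq2 called 12 lower and 0 higher. HJURP, the chaperone of CENPA, was at −1.36, CHAF1B, a subunit of the assembly factor CAF-1, at −0.76, ASF1B at −0.75 and NASP at −0.51. DAXX, a chaperone of H3.3, had 11.5 and 5.88 CPM in the TGF-β1 and control libraries numbered 2, against 17.4 and 7.03 CPM in those numbered 1 and was not called.

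With TGF-β1, edgeR and DESeq2 each called 0 genes in these 7 lists. Only 1 gene of the 7 lists, DAXX, had an unadjusted p under 0.05 by edgeR (log2 fold change 1.16, SE 0.27), with 17.4 and 11.5 CPM in TGF-β1 replicates 1 and 2, against 7.03 and 5.88 CPM in control replicates 1 and 2. SLBP had 79.8 and 67.8 CPM in TGF-β1 libraries, against 76.2 and 68.1 CPM in controls (0.03, SE 0.14). NPAT had 32.9 and 34.6 CPM with TGF-β1, against 31.3 and 35.8 CPM in controls (0.01, SE 0.13). Of the 28 S phase genes 13 had negative values (median 0.01), against 52.3% of all genes tested. Of the 20 G2 and mitosis genes 19 had negative values (median −0.09). The median of the histone members was −0.11. Differences between these medians were not tested.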

How the data were processed

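RNA of 4 MCF10A libraries was sequenced as 50-bp paired ends, per the labels' protocols. Per the submitters' processing notes, the authors used kallisto and GRCh38; its version is not given in the sources used here, nor is the transcript release. Per the file headers, the deposited tables give estimated counts, TPM (corrected for length) and transcript lengths. Of 173259 transcripts, 159239 (91.9%) matched GENCODE 29 by identifier, and the rest held 2.24% to 2.38% of a library's counts. For 85 of 95 member transcripts the deposited length equalled that of GENCODE 29, so the authors' set is not the same release throughout.

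Estimated counts were summed per gene, rounded, filtered with filterByExpr and compared with edgeR 4.0.16 (R 4.3.3, TMM scaling, quasi-likelihood test, Benjamini-Hochberg adjustment over all genes tested, threshold 0.05), with no covariate. CPM and fold changes come from this fit, and standard errors are the fold change divided by the root of its F statistic, an approximation. Class sums replaced their genes in the same table. A single value of 2 against 2 libraries cannot go below p = 0.333 in a two-sided exact permutation test. The p-values therefore rest on spread pooled over genes. That spread is between replicate numbers in the comparison with TGF-β1, and between treatments in the comparison of numbers. Beyond the words biological duplicates, nothing says that the libraries came from separate cultures. The comparisons with TGF-β1 and between replicate numbers use the same 4 libraries.

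Alternatives were DESeq2 1.42.0, limma 3.58.1 on log2(TPM + 1), RLE scaling, other filters, a replicate block or a treatment term, length offsets, other transcript sets, a threshold of 0.01 and leaving out each library. The fits were also run on simulated data that, for the comparison with TGF-β1, held no difference between replicate numbers. That run therefore does not bear on the spread seen here. Promoters are from RefSeq. Named members were the 3 of each class with the highest CPM, up to 12 called ones per comparison with the smallest p, and the 3 highest and 3 lowest fold changes per comparison with at least 50 counts; from each list, up to 3 genes with the smallest p per comparison, with SLBP, NPAT and PHF8 always. A few others named to complete a count or a direction were chosen after their values were seen. The members and lists were chosen with earlier results of these data known. A list of other RNAs without a poly(A) tail, such as MALAT1 and RN7SK, had no matched row and was not analysed here. The values of 2 list genes are not reported here.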

Additional observations from a re-analysis of the deposited data

How the results depend on the processing

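The count of members called with TGF-β1 was 0 as reported and 1 (HIST2H4B) with DESeq2, and also 1 with the replicate block (adjusted p = 0.00654); it was 0 under the other alternatives, where the adjusted p of HIST2H4B ran from 0.535 to 1.00. Over all genes the calls were 0 as reported, 90 with DESeq2, 335 with the replicate block, 15 with no filter, 3 with length offsets and 8 to 25 without 1 library. Leaving out 1 library turned the log2 fold changes of the class sums. Without TGF-β1 replicate 2 they were 0.15 (H1), 0.16 (H2A), 0.15 (H2B), 0.16 (H3) and 0.09 (H4), and without control replicate 1 they were 0.31, 0.23, 0.30, 0.24 and 0.24 in that order. Over all 4 omissions they ran from −0.42 to 0.31 for H1, −0.37 to 0.23 for H2A, −0.43 to 0.30 for H2B, −0.41 to 0.24 for H3 and −0.41 to 0.24 for H4. Each omission leaves 1 library in a group, assumed to vary like the others, and unequal numbers of each replicate number. With the replicate block the class log2 fold changes were −0.09 (H1), −0.08 (H2A), −0.09 (H2B), −0.10 (H3) and −0.11 (H4), edgeR adjusted p 0.698 to 0.798. Their standard errors were 0.05 to 0.06, against 0.30 to 0.34 as reported. Deviations of same-numbered libraries correlated at 0.795, but 2 pairs do not establish that the numbers pair the libraries.

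Between replicate numbers, 46 to 60 members were called, and 51 to 58 without 1 library. In every fit without 1 library 49 of the 57 were called; HIST1H2BF, HIST1H2BH, HIST1H2BK, HIST1H2BN, HIST1H4E, HIST1H4J, HIST2H2BE and HIST3H2BB were lost in at least 1. Over all genes 5524 were called as reported, 3011 without control replicate 2, 3052 without TGF-β1 replicate 2, 3542 with limma and 2599 at a threshold of 0.01. Class sums kept direction and call under every alternative that gave a value; without 1 library their log2 fold changes ran from −0.74 to −0.47 (adjusted p 0.00219 to 0.0292). With only single-exon models that end at the hairpin, H1 and H3 gave no value. Of 29 named members called between replicate numbers, 26 stayed called under every alternative run for single genes; the other 3 lost the call in 9 of 377 alternative values in all, and 0 reversed. Of 38 named list genes called, 11 lost the call in 43 of 494 alternative values, and 0 reversed.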
